A study of Homo sapiens with 4 samples.

Results

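The 48 genes described here are the subunits and inhibitors of NF-κB, and the inflammatory cytokines, chemokines and acute-phase genes that NF-κB and C/EBPβ classically activate together. They were listed by name, with earlier results of these data known. Gene names could be assigned to 46 of them among 57768 gene entries, and SOD2 and CCL5 were not analysed here. The samples are labelled as RNA-seq of total RNA from HepG2, a line established from a human liver tumour, but the extraction text given for them speaks of sonicated nuclei and antibody-bound chromatin. The study's methods give RNA extraction by kit or Trizol, without naming these libraries. There were 2 WT libraries and 2 C/EBPβ enh-/- libraries, called deletion libraries here. In the latter, both copies of an enhancer downstream of CEBPB, the gene of the transcription factor C/EBPβ, had been deleted with CRISPR/Cas9. The labels name no cytokine or other stimulus, and do not state whether the deleted cells were 1 clone or whether libraries of a genotype came from separate cultures, so the p-values measure only the spread between these libraries. The deposited unit is FPKM, fragments scaled by transcript length and by sequencing depth.

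NF-κB is a dimer of Rel-family proteins that is held in the cytoplasm by IκB proteins. Signals from tumour necrosis factor, interleukin 1 or Toll-like receptors lead to degradation of IκB, and the freed dimer activates cytokine, chemokine and survival genes together with the genes of its own inhibitors. C/EBPβ, also known as NF-IL6, binds many of the same promoters. In hepatocytes, the IL6 signal through STAT3 and C/EBP proteins drives the acute-phase genes, whose products are secreted into plasma.

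The labelled cell type was checked first. Of 22 hepatocyte markers, 21 could be matched, and all 21 stayed under 1 FPKM in every library. ALB, which encodes albumin, was at 0.0553 and 0 in WT and at 0 and 0.000783 in deletion libraries, and AFP was at 0 in all but C/EBPβ enh-/- library 2, at 0.0605. HNF4A and APOA1 were below 0.1 throughout. The hepatocyte markers thus go against the label in both genotypes. The 5 epithelial markers summed to 648 to 797 FPKM in WT libraries and to 238 in both C/EBPβ enh-/- libraries, nearly all of it KRT8 and KRT18. CDH1 and EPCAM were below 0.01 in every library, and KRT19 was at 0.907 and 1.81 in WT and at 0 in both deletion libraries. The 7 markers of fibroblasts and stellate cells summed to 55.4 to 56.4 in WT and 60.3 to 77.5 in C/EBPβ enh-/- libraries, with COL3A1 and COL1A1 above 10. COL3A1 was higher in deletion libraries, at 33.3 and 31.9 against 45.8 and 55.7, and COL1A1 overlapped, at 15.5 and 11.4 against 10.1 and 14.9. PDGFRB was lower in deletion libraries, at 4.15 and 5.59 against 1.52 and 2.27, as was DCN, at 1.33 and 1.24 against 0.110 and 0.392. ACTA2 overlapped, at 2.21 and 5.22 against 2.74 and 4.15, and COL1A2 and LUM were below 0.1. The 10 blood and immune markers summed to 2.76 to 9.27, mostly CD68, with CD3E at 0. Endothelial markers stayed below 0.2 each. The part of these shifts in the values below was not tested, and in bulk RNA fewer cells of a type cannot be told apart from less RNA per cell.

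CEBPB had an FPKM of 30.6 and 19.2 in WT libraries and 12.4 and 11.8 in deletion libraries. Both deletion values lay under both WT values, with a log2 fold change of -0.94 (SE 0.27), which did not pass the threshold (adjusted p = 0.125, limma) and was -0.62 without WT library 1. CEBPD, another C/EBP gene of the acute-phase response, was at 9.55 and 16.5 against 4.87 and 7.34 (log2 fold change -0.96, adjusted p = 0.161, limma), and its log2 fold change was -0.59 without WT library 2. CEBPG was at 30.4 and 9.65 against 13.8 and 11.2, and CEBPZ at 28.3 and 26.3 against 31.2 and 26.05. DDIT3 (CHOP), a stress-induced member of the family, was at 78.7 and 19.3 against 114.5 and 22.9. These 3 overlapped between the genotypes, while CEBPA and CEBPE were below the filter and not tested. CEBPA, unlike CEBPB and CEBPD, was higher in both deletion libraries, at 0.524 and 0.00013 against 1.55 and 1.63, and CEBPE was below 0.1.

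Genotypes were compared on log2(FPKM + 1) with limma over the 12491 genes whose mean FPKM reached 1, and 26 of the 46 members were among them. Of these, 1 had an adjusted p under 0.05 and was lower in deletion libraries (3.85%), against 1.21% of all tested genes. None was higher, against 0.248% of all tested genes, and none at an unadjusted p under 0.05 (limma), against 3.86%. At that unadjusted level, 8 members were lower (30.8%), against 16.9% of all tested genes. This balance depended on the scaling: over all tested genes it was 2114 lower and 482 higher, and 1263 lower and 1142 higher with each library centred on its median, where 7 members were lower (26.9%, against 10.1%) and 1, TNFAIP3, higher. Of the 8 lower members, C3, CSF1 and CCL2 reached the filter only through their WT values, which favoured a lower value, so neither share is a result about the members. Both deletion libraries were below both WT libraries for 9 members (34.6%), close to the 37.5% of all tested genes, and above them for 1 (3.85% against 15.1%). The shares without overlap are near or under the background and are no result about the members.

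The median log2 fold change of the 26 members was -0.87, with quartiles of -1.22 and 0.05, against -0.14 over all tested genes. SAA1, IL6 and RELB, like C3, CSF1 and CCL2, had a mean FPKM under 1 in deletion libraries and passed the filter through their WT values. CXCL8 and CXCL2 had a mean under 1 in WT libraries and passed through their deletion values. The filter thus helped to fix this median, in both directions. It also rested on single libraries. Without WT library 2 it was -0.066 and without deletion library 2 it was -0.39, against -0.14 and -0.10 for all tested genes, while it was -0.81 without WT library 1 and -0.95 without deletion library 1. With 2 libraries per genotype the smallest two-sided p of an exact permutation test is 0.333, so none was run on single genes.

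**Figure D1:**
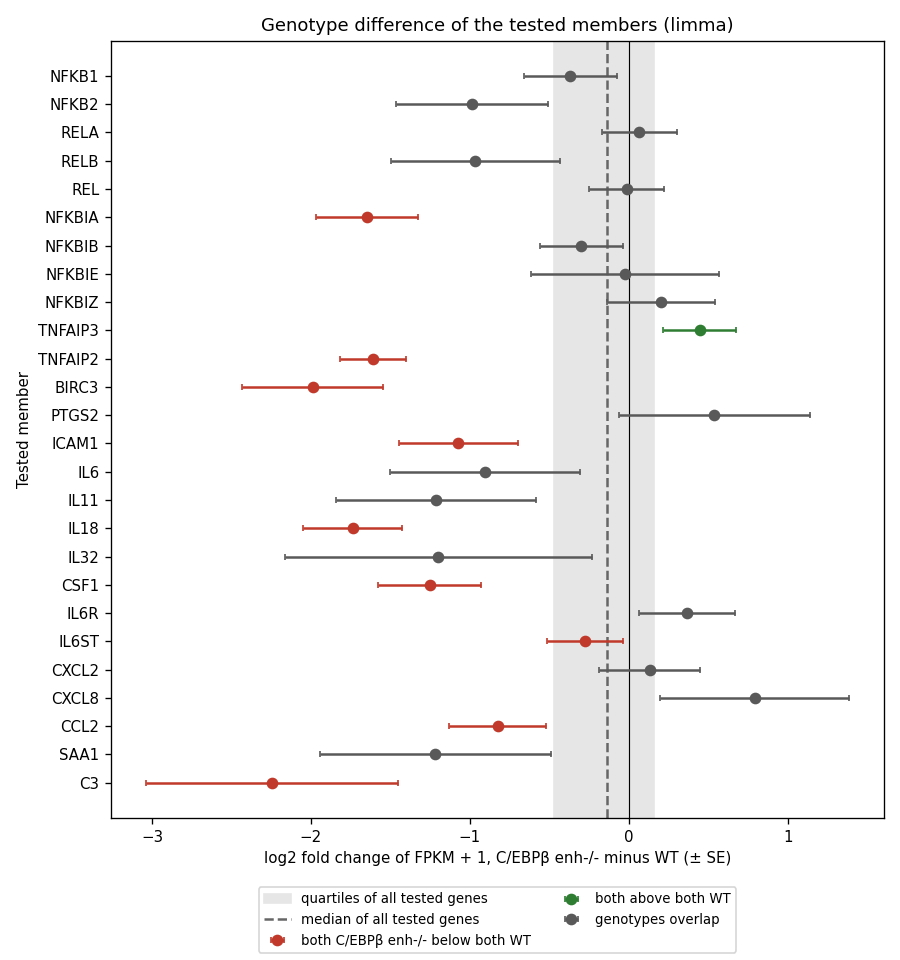
Log2 fold change of FPKM + 1 of deletion libraries against WT libraries for the 26 tested members (points, with the standard error from limma as bars), with the median (dashed) and quartiles (grey band) of all 12491 tested genes. Of the 26 points, 9 stand for members with both deletion libraries below both WT libraries, from IL6ST at -0.28 to C3 at -2.24, and TNFAIP3 is the 1 member separated upward, at 0.45.

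The NF-κB subunits were all expressed, and none was separated by genotype. RELA (p65), the main activating subunit, had 7.95 and 9.56 FPKM in WT libraries and 10.3 and 8.16 in deletion libraries, a log2 fold change of 0.07 (SE 0.23). REL was at 2.57 and 2.72 against 2.65 and 2.58, a log2 fold change of -0.01 (SE 0.24). The levels of both lay within a narrow range over all 4 libraries. NFKB1, which encodes the p105 precursor of p50, was at 7.10, 7.12 and 7.19 in WT library 1 and the deletion libraries, and at 12.7 in WT library 2. NFKB2, the p100 precursor of p52, was at 8.87 and 19.7 in WT and 9.81 and 3.81 in deletion libraries (log2 fold change -0.99, SE 0.48, adjusted p = 0.290, limma). RELB, the partner of p52 in the alternative pathway, had 1.05 and 5.66 in WT and 1.10 and 0.706 in deletion libraries (log2 fold change -0.97, SE 0.53). For NFKB1, NFKB2 and RELB, WT library 2 was the highest and the other WT library lay near deletion library 1. Without WT library 2 the log2 fold changes were 0.011 for NFKB1, -0.45 for NFKB2 and -0.11 for RELB, and that of NFKB2 was -0.40 without deletion library 2.

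NFKBIA, which encodes IκBα, the classical inhibitor and an immediate target of NF-κB, had the highest FPKM of the 26 members in both WT libraries, at 47.0 and 60.4. It was at 12.0 and 22.1 in deletion libraries. The means were 53.7 ± 9.50 and 17.1 ± 7.16 (SD, n = 2 each), a ratio of 0.317, and the 2 genotypes did not overlap. The log2 fold change was -1.65 (SE 0.32, adjusted p = 0.0638, limma), just short of the threshold, and stayed between -2.06 and -1.23 when single libraries were left out. TNFAIP3 (A20), a ubiquitin-editing enzyme that shuts off the signal and is likewise an NF-κB target, was at 6.78 and 6.95 in WT and at 11.1 and 8.47 in deletion libraries. It was thus the only tested member with both deletion values above both WT values, with a log2 fold change of 0.45 (SE 0.23, adjusted p = 0.318, limma), which was 0.27 without deletion library 1. The 2 feedback genes therefore lay on opposite sides, but neither passed the threshold, and their difference was not tested.

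NFKBIB (IκBβ) was at 12.3 and 10.2 in WT and 10.9 and 7.24 in deletion libraries, and overlapped. NFKBIE (IκBε) split within each genotype rather than between them, with 3.50 and 9.20 in WT and 10.9 and 2.76 in deletion libraries. NFKBIZ (IκBζ), a nuclear cofactor for secondary response genes, ranged from 1.31 to 3.13, with both extremes in deletion libraries. Their log2 fold changes were -0.30 (SE 0.26), -0.02 (SE 0.59) and 0.20 (SE 0.34). That of NFKBIB was -0.034 without deletion library 2 and -0.57 without deletion library 1, and those of NFKBIE and NFKBIZ changed sign when single libraries were left out.

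TNFAIP2, a gene induced by tumour necrosis factor, was the only member past the threshold, and it fell. It was at 30.7 and 31.8 FPKM in WT libraries and at 9.14 and 9.96 in deletion libraries. The libraries of a genotype were close to each other, and the means of 31.2 ± 0.781 and 9.55 ± 0.577 (SD, n = 2 each) differed by 3.27 times. The log2 fold change was -1.61 (SE 0.21, adjusted p = 0.0235, limma), which ranked it at 70 by p among all tested genes. The gene (ENSG00000185215.4) spans chr14:103587813-103603776 on the plus strand of GRCh37, and NFKBIA spans chr14:35870285-35873955 on the minus strand. Over the 419 tested genes of this chromosome the median log2 fold change was -0.39. With equal totals of FPKM in each library the adjusted p of TNFAIP2 was 0.0509, without the filter on low values 0.188 and from 0.0942 to 0.220 with single libraries left out (limma), while the log2 fold change stayed between -1.70 and -1.42.

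BIRC3 (cIAP2), an inhibitor of apoptosis that NF-κB induces, was at 5.88 and 15.2 in WT and at 2.39 and 1.09 in deletion libraries. The ratio of the means was 0.165 and the log2 fold change -1.99 (SE 0.44, adjusted p = 0.0816, limma), at -1.37 without WT library 2. Its paralog and neighbour on chromosome 11, BIRC2 (cIAP1), had 14.7 and 11.3 against 18.4 and 12.3, and overlapped. ICAM1, the leukocyte adhesion receptor, was at 3.07 and 7.67 against 1.79 and 1.86 (log2 fold change -1.07, SE 0.37, adjusted p = 0.175, limma), and its log2 fold change was -0.53 without WT library 2. PTGS2 (cyclooxygenase 2) was at 1.01 and 1.59 in WT and at 5.60 and 0.663 in deletion libraries, so that its log2 fold change of 0.54 came from 1 library and was -0.46 without it.

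For these response genes the 250 bases upstream of the RefSeq start site are shown where the promoter set used here holds an entry. It does for 4 of the 8 members with the largest separated differences (the others are C3, IL18, CSF1 and CCL2). They are printed 5′ to 3′ on the gene's strand, with coordinates on GRCh38.p14, not the build of the FPKM files. Capitals mark matches, on either strand, to the κB consensus or to the C/EBP motif TTGCNNAA. BIRC3 (chr11:102317234-102317483, plus strand) and NFKBIA (chr14:35404750-35404999, minus strand) hold κB matches and TNFAIP2 (chr14:103123211-103123460, plus strand) a C/EBP match, while ICAM1 (chr19:10270870-10271119, plus strand) has neither set of letters in this window.
BIRC3: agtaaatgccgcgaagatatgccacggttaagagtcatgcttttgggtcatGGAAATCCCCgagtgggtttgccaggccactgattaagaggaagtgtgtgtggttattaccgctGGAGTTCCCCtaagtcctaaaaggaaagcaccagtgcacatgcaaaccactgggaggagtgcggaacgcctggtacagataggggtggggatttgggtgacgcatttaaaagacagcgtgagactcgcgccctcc
NFKBIA: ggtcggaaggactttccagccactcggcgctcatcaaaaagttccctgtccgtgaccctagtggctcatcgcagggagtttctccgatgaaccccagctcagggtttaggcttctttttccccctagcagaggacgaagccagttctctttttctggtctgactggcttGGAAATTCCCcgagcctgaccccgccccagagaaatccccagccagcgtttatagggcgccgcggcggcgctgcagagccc
TNFAIP2: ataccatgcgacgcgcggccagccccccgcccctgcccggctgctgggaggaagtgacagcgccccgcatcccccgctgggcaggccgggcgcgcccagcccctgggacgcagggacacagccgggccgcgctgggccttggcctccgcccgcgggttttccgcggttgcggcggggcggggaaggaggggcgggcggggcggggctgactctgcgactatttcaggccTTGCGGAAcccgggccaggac
ICAM1: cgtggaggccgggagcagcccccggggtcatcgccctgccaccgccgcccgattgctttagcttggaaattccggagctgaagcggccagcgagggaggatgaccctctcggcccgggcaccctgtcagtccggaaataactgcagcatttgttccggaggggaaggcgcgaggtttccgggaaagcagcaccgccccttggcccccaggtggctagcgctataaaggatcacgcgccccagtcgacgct

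The C/EBP match of TNFAIP2 spans bases -21 to -14 before the start site. The κB matches lie at -199 to -190 and -135 to -126 in BIRC3 and at -81 to -72 in NFKBIA, all on the opposite strand. Of the 48 genes, 35 had an entry in the promoter set, and 15 of these (42.9%) held a κB match on either strand. This compares with 5.05% of all 27305 entries of the set. The C/EBP motif was present in 7 (20%), against 9.13% of all entries. The members were picked as NF-κB and C/EBPβ targets, so these shares describe that choice, and a match of letters is not a binding site. Likewise, a window without a match, as for ICAM1, can still hold a site that departs from these letters.

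Of 12 cytokine genes, 5 passed the filter, with log2 fold changes from -1.74 to -0.91. IL18, an interleukin 1 family cytokine, was at 23.5 and 13.7 FPKM in WT and 5.59 and 3.92 in deletion libraries, with no overlap between the genotypes, although the WT libraries themselves lay far apart. Its means were 18.6 ± 6.90 and 4.75 ± 1.18 (SD, n = 2 each) and its log2 fold change -1.74 (SE 0.31, adjusted p = 0.0543, limma). CSF1, the growth factor of macrophages, was at 2.21 and 4.37 against 0.764 and 0.722, also without overlap (log2 fold change -1.25, SE 0.32, adjusted p = 0.106, limma). LIF, an IL6-type cytokine, lay just below the filter with a mean of 0.88, and had 1.501 and 1.640 in WT against 0.124 and 0.254 in deletion libraries. Both WT libraries were above both deletion libraries for IL18, CSF1 and LIF, as they were for 37.5% of all tested genes.

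IL6, IL11 and IL32 overlapped. IL6, the main inducer of the hepatic acute phase, was at 0.180 and 3.41 in WT and 0.408 and 0.0524 in deletion libraries. IL32 was at 0.415 and 14.4 against 1.14 and 0.939. Both were carried by WT library 2, and without it their log2 fold changes were 0.044 and 0.53. IL11 was at 9.31 and 4.81 in WT and 5.72 and 0.659 in deletion libraries, where library 2 alone was low, and its log2 fold change of -1.21 was -0.20 without that library. TNF, IL1A, IL1B, IL1RN and CSF3 stayed below 0.2 in every library, and CSF2 was listed at 0 in all 4.

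Of the receptors, IL6ST (gp130), the signalling chain shared by the IL6 family, was at 16.7 and 17.0 in WT and 16.1 and 11.7 in deletion libraries (log2 fold change -0.28, SE 0.24). That value was -0.064 without deletion library 2 and -0.49 without deletion library 1. IL6R, the ligand-binding chain, was at 0.933 and 1.71 against 2.34 and 1.61 and overlapped, with a log2 fold change of 0.37 (SE 0.30) that ranged from 0.12 to 0.61 with single libraries left out. In FPKM, a level per length, IL6ST was above IL6R in every library.

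Chemokine genes were low throughout. CCL2, which attracts monocytes, was at 2.16 and 2.13 FPKM in WT libraries and at 0.448 and 1.18 in deletion libraries, the only tested chemokine without overlap (log2 fold change -0.83, SE 0.31, adjusted p = 0.193, limma, and -0.53 without deletion library 1). The 721 tested genes of its chromosome, 17, had a median log2 fold change of -0.47. CXCL8 (interleukin 8) was at 0.0300 and 0.788 in WT and at 3.31 and 0.278 in deletion libraries. Its log2 fold change of 0.79 came from deletion library 1 and was -0.086 without it. CXCL2 and CXCL3 ranged from 0.349 to 1.64, CCL20 stayed below 0.1, and their near relatives CXCL1 and CXCL5 on chromosome 4 were listed at 0 in all 4 libraries. CXCL1, CXCL2 and CXCL3 are similar enough in sequence that fragments could be divided between them.

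Of 11 acute-phase and antimicrobial genes, 2 passed the filter. C3, the central complement component, was at 1.42 and 15.6 in WT and at 0.286 and 0.393 in deletion libraries. It passed the filter through its WT values alone, so that a difference was partly fixed by the filter. The log2 fold change was -2.24 (SE 0.79, adjusted p = 0.177, limma). Without WT library 2 it was -0.85, and without WT library 1 it was -3.63 (adjusted p = 0.0479, limma). SAA1, serum amyloid A, which passed the filter through WT library 2, was at 0.309 and 5.89 against 0.604 and 0.0419, and its log2 fold change of -1.22 was -0.018 without WT library 2. SAA2, its near-identical neighbour, with which it can share fragments, had 0.0763 and 2.46 against 0 and 0.00204. LCN2 was at 0.339 and 0.333 against 0 and 0.118, and CFB (complement factor B) at 0.271 and 0.459 against 1.27 and 0.289. Of the plasma proteins of hepatocytes, HP reached 0.123, LBP 0.0258, and ORM1 was listed at 0. PTX3, S100A8 and S100A9 stayed below 0.2. The hepatocyte markers above were likewise below 1 in all 4 libraries.

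**Figure D2:**
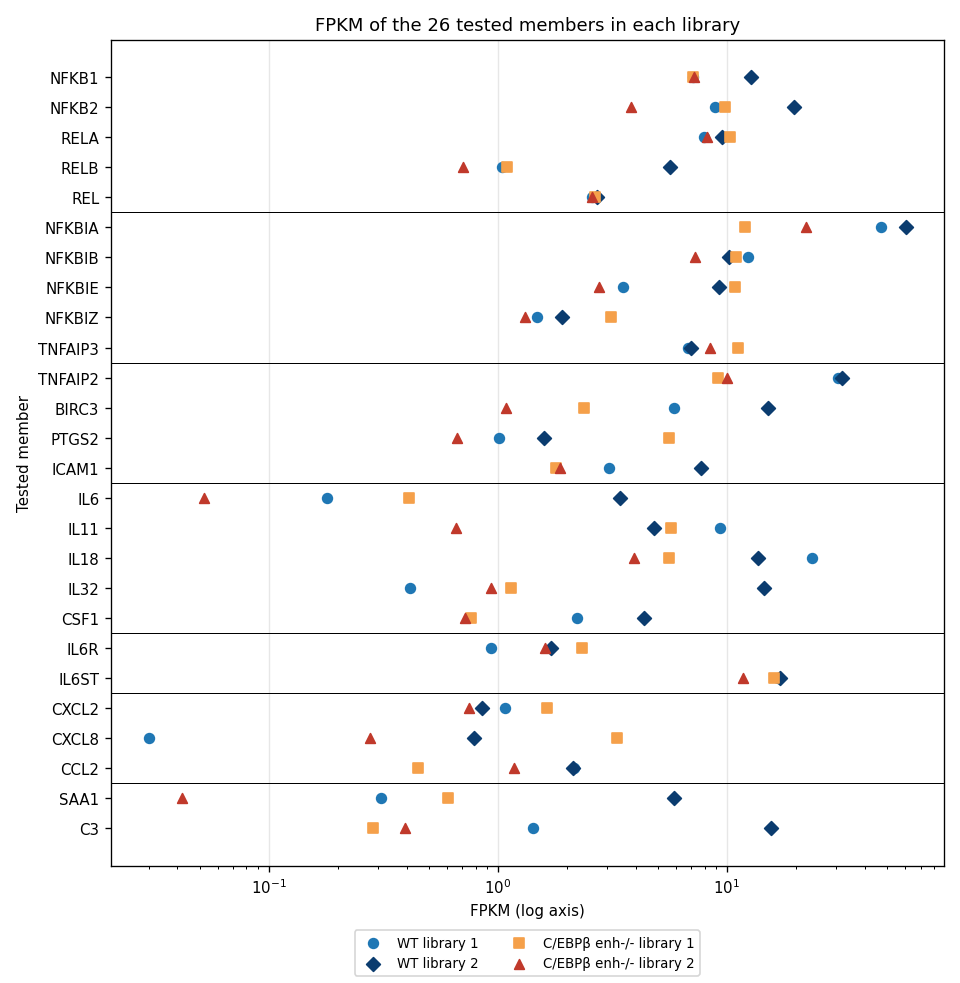
FPKM (log axis) of each of the 26 tested members in the 2 WT libraries (blue circles and diamonds) and the 2 deletion libraries (orange squares and red triangles), grouped by role between the lines. WT and deletion points are apart for TNFAIP2 (30.7 and 31.8 against 9.14 and 9.96), while WT library 2 stands alone to the right for RELB, IL6, IL32, SAA1 and C3.

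The members also differed within the WT group. WT library 2 exceeded WT library 1 by at least 1 on the log2(FPKM + 1) scale, which is a 2-fold difference for well expressed genes, in 9 of the 26 tested members (34.6%), against 1.51% of all tested genes. These were NFKB2, RELB, NFKBIE, BIRC3, ICAM1, IL6, IL32, SAA1 and C3. The reverse held for no member, against 1.84% of all tested genes. This compares 2 single libraries, so it has no replicate check. The difference was 3.45 for IL32, 2.78 for C3, 2.40 for SAA1, 1.90 for IL6 and 1.70 for RELB, which ranked them at 16, 27, 35, 40 and 46 among the 12491 tested genes. Without the value of WT library 2, these 5 would not have passed the filter, so part of this count was fixed by it. With the filter set on the mean FPKM of the other 3 libraries, it was 4 of 21 members (19.0%), against 1.27% of all such genes, namely NFKB2, NFKBIE, BIRC3 and ICAM1.

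Of the members without overlap between the genotypes, C3, BIRC3 and ICAM1 belonged to this set. For the others the log2 difference between the WT libraries was 0.74 for CSF1, 0.36 for NFKBIA and 0.05 for TNFAIP2. That difference was 0.03 for IL6ST and for TNFAIP3, -0.01 for CCL2 and -0.73 for IL18. CEBPB itself was lower in WT library 2, by 0.65 on the log2 scale, while CEBPD was higher by 0.73. The depth of WT library 2, read from the spacing of low values, was 1.12 times that of WT library 1. In WT libraries 1 and 2, the summed blood and immune markers were 4.26 and 4.83, and the epithelial markers 648 and 797. Those of fibroblasts and stellate cells were 56.4 and 55.4. The part of these values in the excess was not tested.

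The deletion libraries also differed from each other. Library 1 exceeded library 2 by at least 1 in 5 of 26 members (19.2%), against 2.83% of all tested genes, with IL11 at 2.02, PTGS2 at 1.99, CXCL8 at 1.75, NFKBIE at 1.66 and NFKB2 at 1.17. The reverse held for no member, against 2.24% of all tested genes. With the filter set on the mean FPKM of the other 3 libraries, it was 4 of 24 members (16.7%), against 2.51%. Deletion library 1 had 0.552 times the depth of WT library 1, and library 2 had 1.22 times. The summed blood and immune markers were 9.27 in deletion library 1 and 2.76 in library 2, mostly CD68, at 7.79 and 2.17. Whether these values have a part in the excess of deletion library 1 was not tested. NFKB2 and NFKBIE belonged to both sets, and the other genes differed between them.

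**Figure D3:**
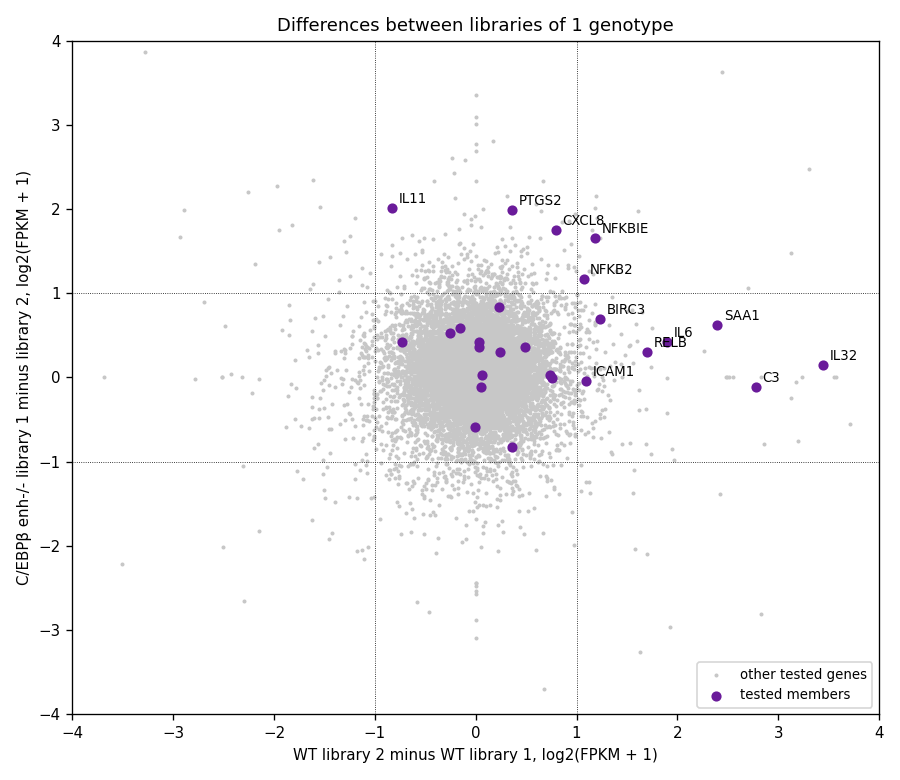
Differences in log2(FPKM + 1) between WT libraries (x axis, library 2 minus library 1) and between deletion libraries (y axis, library 1 minus library 2) for the tested members (purple) and the other tested genes (grey), with dotted lines at 1 and -1. Of the 26 members, 9 lie to the right of 1 and none to the left of -1, and genes beyond 4 in either direction are not drawn.

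IL6 and IL32 are shown as examples of genes with a large excess in WT library 2, chosen after their values were seen. In the same notation, IL6 (chr7:22726950-22727199, plus strand) holds a C/EBP match at -155 to -148 and a κB match at -73 to -64. IL32 (chr16:3065153-3065402, plus strand) holds 2 κB matches on opposite strands that overlap, from -99 to -89.
IL6: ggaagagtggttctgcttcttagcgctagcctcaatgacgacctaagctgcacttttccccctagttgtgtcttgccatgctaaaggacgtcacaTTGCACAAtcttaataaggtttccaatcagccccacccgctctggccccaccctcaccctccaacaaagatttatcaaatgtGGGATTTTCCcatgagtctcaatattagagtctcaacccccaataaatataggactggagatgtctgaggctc
IL32: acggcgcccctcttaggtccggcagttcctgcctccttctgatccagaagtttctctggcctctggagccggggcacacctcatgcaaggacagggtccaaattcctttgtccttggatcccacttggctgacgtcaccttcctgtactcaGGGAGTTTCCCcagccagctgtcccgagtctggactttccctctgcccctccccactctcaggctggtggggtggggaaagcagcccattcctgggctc

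Among other genes of the pathway, 45 NF-κB pathway components (receptors, adaptors, IκB kinases and ubiquitin enzymes) were listed, and 37 were tested. Of these 1 was higher and none lower at an adjusted p under 0.05 (limma), and at an unadjusted p under 0.05 there were 3 and 0, against 3.86% and 16.9% of all tested genes. The median log2 fold change was -0.08. IL1R1, the signalling receptor for interleukin 1, rose from 0.130 and 0.0984 FPKM in the WT libraries to 4.01 and 3.36 in deletion libraries. The ratio of the means was 32.2 and the log2 fold change 2.07 (SE 0.27, adjusted p = 0.0238, limma). It passed the filter only through its deletion values. Without the filter its adjusted p was 0.188, and with single libraries left out 0.0626 to 0.193 (limma), at log2 fold changes from 1.97 to 2.17. Its ligands in the set, IL1A and IL1B, stayed below 0.1 in all libraries.

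Of 16 genes of IL6-type receptors and the STAT3 arm, 12 were tested and none passed the threshold, with 4 lower and none higher at an unadjusted p under 0.05 (limma), against 16.9% and 3.86% of all tested genes. The smallest p-values were those of OSMR, the oncostatin M receptor (8.003 and 13.6 FPKM against 5.48 and 4.36), SOCS3, the feedback inhibitor of this pathway (44.01 and 30.8 against 22.7 and 16.0), and JAK1, its kinase (30.3 and 26.4 against 19.3 and 18.7). Their log2 fold changes were -0.96, -0.91 and -0.55, with adjusted p-values from 0.139 to 0.208 (limma), and that of OSMR was -0.61 without WT library 2.

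Of 35 other NF-κB target genes, 10 were tested, with none past the threshold and 4 lower at an unadjusted p under 0.05 (limma), against 16.9% of all tested genes. TNFAIP8, a regulator of cell death, had 11.1 and 10.0 FPKM against 5.11 and 4.88 (log2 fold change -0.94, SE 0.21, adjusted p = 0.0837, limma). PI3, the elastase inhibitor elafin, had 1.18 and 3.49 against 0.408 and 0.237, and CXCL16 had 1.98 and 1.77 against 0.471 and 0.788. PI3 and CXCL16, both among the 4, passed the filter only through their WT values, which favoured a lower value, and the log2 fold change of PI3, -1.25 with all libraries, was -0.72 without WT library 2. Of 28 other acute-phase and complement genes, 4 were tested, with none past the threshold and 2 lower at that unadjusted level (limma), against the same 16.9%. C1S and C1R, the proteases of the first complement component, were at 6.13 and 19.5 against 3.04 and 2.13, and at 7.02 and 28.9 against 3.68 and 3.70. Their log2 fold changes of -1.77 and -1.72 were -1.01 and -0.77 without WT library 2, which stood above WT library 1 for both genes as it did for C3. CP (ceruloplasmin) was at 1.54 and 1.74 against 1.04 and 0.971.

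**Figure D4:**
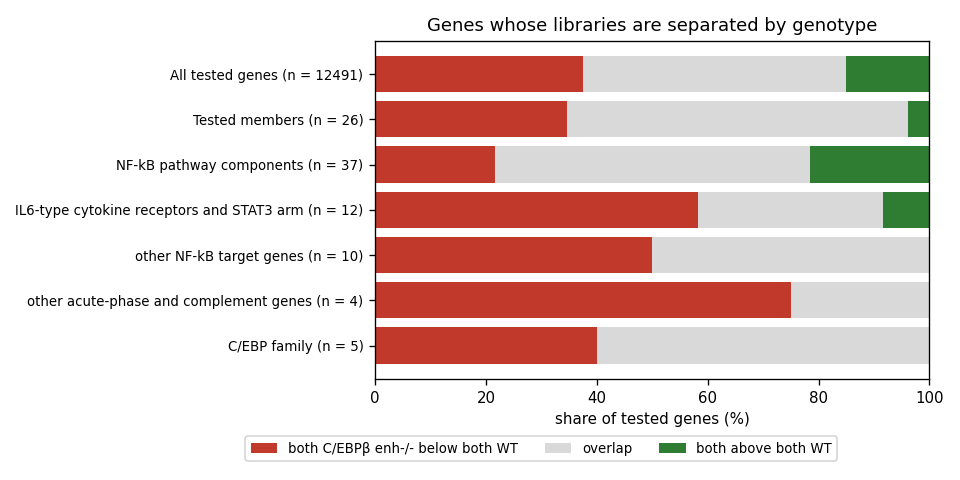
Share of tested genes with both deletion values below (red) or above (green) both WT values, for all tested genes, the tested members and the 5 lists of related genes. The red share is 37.5% for all tested genes, 34.6% for the members, 21.6% for NF-κB pathway components, 58.3% for IL6-type receptors and the STAT3 arm, 50% of 10 other NF-κB targets, 75% of 4 other acute-phase and complement genes and 40% of 5 C/EBP genes. The green share is 15.1%, 3.85%, 21.6% and 8.33% for the first 4 of these and 0 for the last 3, and no test compared them.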

How the data were processed

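The authors deposited 1 FPKM value per gene and library for 57815 gene entries. Per the labels, their processing notes name TopHat2 2.0.13, Cufflinks, edgeR and hg19, with no role given, and whether the libraries were scaled to each other is not given in the sources used here. Leaving out 47 pseudoautosomal Y entries, 55535 of 57768 identifiers matched a symbol in the reference table of Ensembl identifiers, and coordinates came from GENCODE on GRCh37. FPKM depends on the other genes of a library. Depth, from the spacing of low FPKM of genes with 1 transcript (59.9% to 61.9% within 0.1 of a whole fragment), was about 24400000 to 54100000 fragments, assuming 200-base fragments. No counts were recovered.

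Genotype was taken from the labels. Genes whose mean FPKM reached 1 were fitted with limma 3.58.1 (R 4.3.3) on log2(FPKM + 1), with a mean-variance trend. The p-values were two-sided and Benjamini-Hochberg adjusted over all 12491 genes. Independent normal values were simulated to check the estimate of planted changes, which does not show how the p-values behave in these libraries. Fold changes on this scale understate those of low genes. The members and lists were chosen with earlier results of these data known. Every tested member, every C/EBP gene, and the called genes or 3 smallest p-values of each list were named. Alternatives were limma without trend, a pseudocount of 0.1, no filter, a minimum of 5, 3 scalings, genes listed at 0 left out, a replicate block and leaving out each library. Tables were made with Python 3.11.15 and pandas 2.3.3.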

Additional observations from a re-analysis of the deposited data

How the results depend on the processing

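Against 151 lower and 31 higher tested genes, 1 member called lower and 0 higher, 9 members separated downward and 1 upward, and a member median of -0.87, results moved as follows. Without the filter, 0 genes were lower and 0 higher by limma (2657 and 1107 at an unadjusted p under 0.05), 0 members were called, 5 members were separated upward and the member median over 46 genes was -0.018. At a minimum mean of 5, 20 genes were higher, and 2 of 12 members were called and 5 separated downward. With genes listed at 0 left out, 324 genes were lower and 47 higher, and 4 members were called (TNFAIP2, IL18, NFKBIA and BIRC3). A pseudocount of 0.1 called 2 members (TNFAIP2 and IL18). Rescaling to the same total gave 61 lower genes, 0 members called and 2 separated upward. Centring on the median gave 68 lower genes and division by the upper quartile 62, each with 4 members separated upward, and moved the median of all tested genes from -0.14 to 0.03. NFKBIE then had a log2 fold change of 0.15 and 0.14, and REL of 0.16 and 0.13. A replicate block gave 93 lower genes and called 2 members (TNFAIP2 and IL18, adjusted p = 0.0431 and 0.0353, limma). The deviations of same-numbered libraries correlated at 0.00945 (Pearson, across genes). A correlation over all genes cannot show whether these libraries were paired, and the sample labels used here give only a number. The share of all tested genes separated was not taken under these alternatives, so the counts of separated members are no result about the members. The cause of the changes above was not tested.

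With single libraries left out, the lone library is assumed to vary like the others. Tested genes called then ranged from 9 to 22 lower and 3 to 20 higher, members called lower from 0 to 1, members separated downward from 9 to 19 and upward from 1 to 8, and the member median from -0.95 to -0.066. CEBPB ranged from -1.27 to -0.62 and did not pass in any alternative. Signs changed within these ranges of log2 fold change: CXCL2 -0.16 to 0.43, CXCL8 -0.086 to 1.67, IL32 -2.92 to 0.53, IL6 -1.86 to 0.044, NFKB1 -0.75 to 0.011, NFKBIE -0.85 to 0.81, NFKBIZ -0.22 to 0.62, PTGS2 -0.46 to 1.53, REL -0.043 to 0.016, RELA -0.086 to 0.22, CEBPG -1.23 to 0.34, CEBPZ -0.064 to 0.19 and DDIT3 -0.75 to 1.52. No precision beyond 2 libraries per genotype can be given.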

Other observations

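The 20 tested genes with the largest excess of WT library 2 over WT library 1 were mostly small RNA genes listed at 0 in WT library 1, such as SNORD67 at 32.2 FPKM in WT library 2. The 2 of these 20 above 0 in WT library 1 were IL32 and ALDH3A1, an aldehyde dehydrogenase at 1.46 and 21.6 FPKM in WT and 0.376 and 1.33 in C/EBPβ enh-/- libraries. Among the 50 largest, 5 were members (IL32, C3, SAA1, IL6 and RELB) and 1 was C1R, and among the 100 largest BIRC3 and C1S were added. Of all 12491 tested genes, 26 were members. Those 5 would not have passed the filter without the value of WT library 2, so part of this count was fixed by it. These lists were read after the values had been seen.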
